A study of Mus musculus with 9 samples.

Results

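The genes described here code for cytosolic heat shock chaperones and their regulators. The list held 10 names, namely Hsf1, Hspa8, Hspa4, Hsph1, Hsp90aa1, Hsp90ab1, Dnajb1, Hspb1, Cryab and Bag3. A gene was measured through a transcript cluster, a group of array probes for 1 transcript, that carried its symbol and no other in the platform annotation. Of the 10 genes, 8 had such a cluster, among 30050 genes with one in the whole table. Hsf1 and Hsp90ab1 had none and were not analysed here. Hspa8 had 4 such clusters and each of the other 7 genes had 1. All 8 lay above log2 4.69, the dim limit used here, which is the 95th percentile of the mean level of 1714 olfactory and vomeronasal receptor genes.

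RNA came from cells labelled HL-1, a mouse line derived from atrial heart muscle, and was measured on 9 Affymetrix arrays, 3 for each of 3 groups. DOX_IFNg cells received 0.3 µM doxorubicin together with 20 ng/ml interferon gamma. DOX cells received 0.3 µM doxorubicin alone, an anthracycline cancer drug that poisons topoisomerase II. Con cells received phosphate-buffered saline, and the length of treatment is not given in the sources used here. All groups are 1 cell line, no group received interferon gamma alone, and the labels do not say whether replicates came from separate dishes. Each p-value therefore weighs a difference against array-to-array spread that may be technical. With total RNA from whole dishes, fewer cells of a kind and less RNA per cell cannot be told apart.

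Cytosolic chaperones bind unfolded stretches of other proteins. Hsp70 proteins do so in cycles that J proteins start and nucleotide exchange factors end, and Hsp90 proteins act on late folding intermediates handed over by cochaperones. Small heat shock proteins hold unfolding proteins without using ATP. In many cell types heat and other protein stress induce a large share of these genes together through heat shock factor 1, which binds repeats of the unit nGAAn in their promoters. In heart muscle, Cryab and Bag3 are known for upkeep of the sarcomere.

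Because these genes share a known promoter element, the bases before the start are shown for the genes whose values are described most fully. The sequences are from RefSeq, assembly GRCm38.p6, where 5 of the 8 measured genes had a window of 250 bases before to 50 after a start, namely Hspa4, Hsph1, Dnajb1, Hspb1 and Bag3. Capitals mark every match to TTCNNGAA or GAANNTTC, a pair of head-to-head or tail-to-tail units, read on both strands, and N is any base. Hsph1 and Hspb1 are shown because they hold such matches, and Dnajb1 and Hspa4 because they hold none. Hspe1, a mitochondrial cochaperonin of the longer lists below, is shown for a run of 4 alternating units. The first 5 stretches end before the start and are chr5:149636337-149636456 on the minus strand for Hsph1, chr5:135887769-135887888 on the plus strand for Hspb1, chr8:83608055-83608174 on the plus strand for Dnajb1, chr11:53300480-53300599 on the minus strand for Hspa4 and chr1:55088028-55088147 on the plus strand for Hspe1. The last is a site just after the Hsph1 start, chr5:149636287-149636310 on the minus strand.
Hsph1 before the start: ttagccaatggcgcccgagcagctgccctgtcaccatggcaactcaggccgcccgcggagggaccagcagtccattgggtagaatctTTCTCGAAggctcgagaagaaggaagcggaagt
Hspb1 before the start: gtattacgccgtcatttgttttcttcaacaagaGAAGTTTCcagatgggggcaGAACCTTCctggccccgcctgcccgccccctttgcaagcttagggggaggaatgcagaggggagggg
Dnajb1 before the start: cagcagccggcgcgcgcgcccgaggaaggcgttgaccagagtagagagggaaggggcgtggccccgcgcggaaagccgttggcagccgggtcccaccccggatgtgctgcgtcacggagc
Hspa4 before the start: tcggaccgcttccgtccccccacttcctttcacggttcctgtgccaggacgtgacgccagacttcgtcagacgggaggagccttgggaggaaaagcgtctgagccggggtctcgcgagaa
Hspe1 before the start: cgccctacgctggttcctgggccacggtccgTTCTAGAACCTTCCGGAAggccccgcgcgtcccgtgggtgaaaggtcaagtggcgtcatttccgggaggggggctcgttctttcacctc
Hsph1 after the start: atgctgcagaTTCTGGAAAGTTCt

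The paired units occurred in 3 of the 5 genes with a window. They lay 33 bases before the Hsph1 start, 117 and 97 before the Hspb1 start, and 43 after the Bag3 start. Paired units are common, in 15.1% of all 32851 RefSeq windows of this length and in 17.0% of the 27025 genes with a window. A row of 3 alternating units (GAANNTTCNNGAA or TTCNNGAANNTTC, each of which contains the paired form) occurred in 0.603% of the windows and 0.662% of the genes. Among the 5 genes it occurred only in Hsph1, 37 bases after the start. The table lists an additional Hsph1 start, from which the same site lies 16 bases after. No form was found in the windows of Hspa4 and Dnajb1. A match of letters is a description and says nothing of whether a factor is bound there.

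After doxorubicin the chaperone genes moved in different directions, and 5 of 8 were called (limma, adjusted p under 0.05 over 30050 genes). Hspa4, Cryab and Bag3 rose, and Hsph1 and Dnajb1 fell. Over all genes tested, 15.6% were called in this comparison, 8.06% higher and 7.53% lower, and among the 12127 genes above the dim limit the share was 33.0%. The median difference was 0.02 on the log2 scale over the 8 genes, 0.0022 without Hspa8, and -0.01 over all genes tested. With interferon gamma added as well, against Con, 5 of 8 were called, where the shares were 17.4% of all genes (8.01% higher and 9.41% lower) and 36.7% of those above the dim limit. Hspa4 and Cryab rose and Hsph1, Dnajb1 and Hspb1 fell. Both comparisons use the same Con arrays. Between DOX_IFNg and DOX none of the 8 was called, and 0% of all genes were. Without Hspa8, whose value is at the ceiling of the scale, the counts were 5 of 7, 5 of 7 and 0 of 7.

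**Figure D1:**
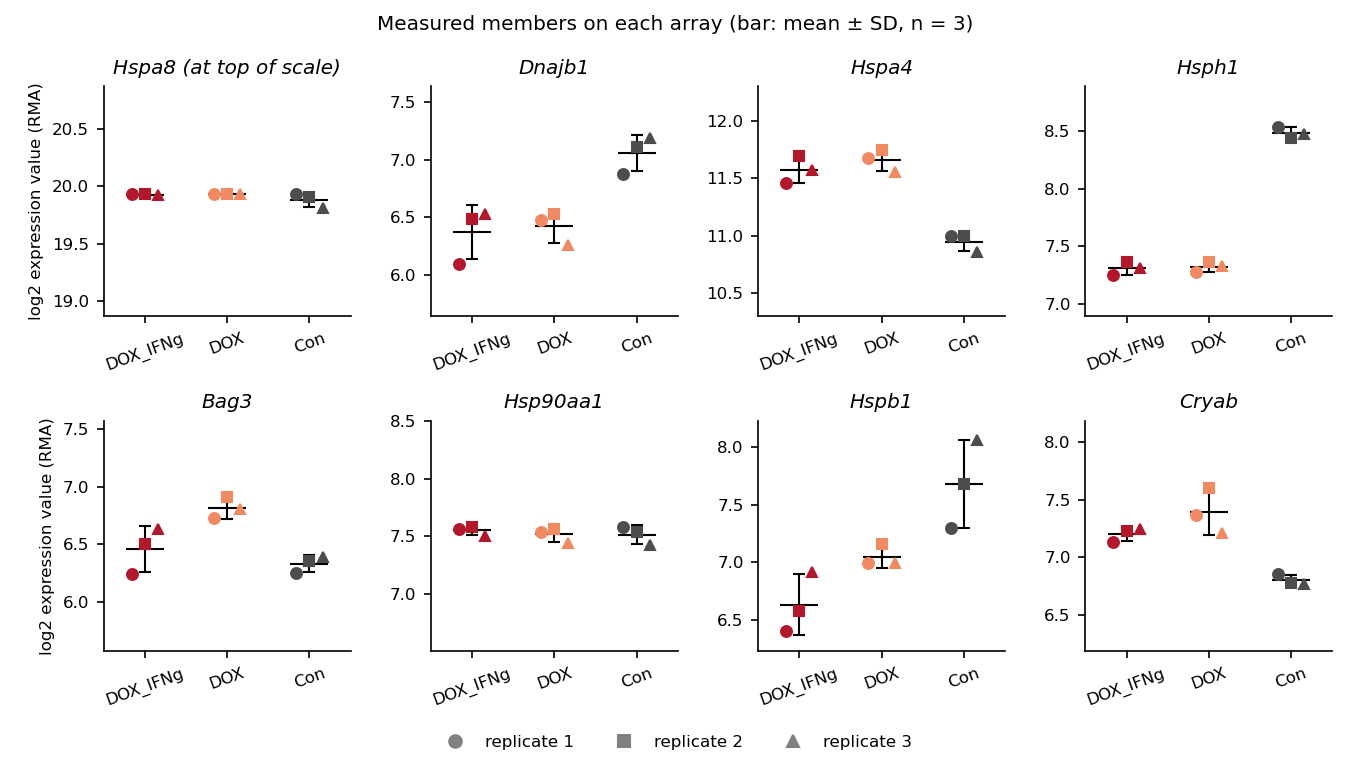
Log2 expression value (RMA) of each measured chaperone gene on every array, with groups along the horizontal axis, replicates by marker shape, and bars for mean ± SD of 3 arrays. Both groups given doxorubicin lie below all Con arrays for Hsph1 and Dnajb1 and above them for Hspa4 and Cryab, while Hspa8 sits at the top of the scale, between 19.82 and 19.93.

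Hspa8, the constitutive cytosolic Hsp70 known as Hsc70, could not be compared between groups through its own symbol. The cluster that stands for it read 19.93 on all 3 DOX_IFNg arrays, 19.93 on all 3 DOX arrays, and 19.93, 19.91 and 19.82 on the Con arrays. On each of the 9 arrays this value was the highest of that array, and 25 clusters of the table, of which 3 carry the Hspa8 symbol, shared it on every array. The difference of 0.05 between DOX and Con is therefore the difference between the arrays' own highest values, and no change of Hspa8 can be read from it. The other 3 clusters with the single symbol Hspa8 were at the array maximum on 9, 9 and 8 arrays. The number in each cluster's identifier places these 4 clusters on chromosomes 1, 1, 6 and 14, whereas RefSeq places Hspa8 on chromosome 9. Over 27116 genes on a numbered chromosome the identifier and RefSeq gave the same chromosome in 99.8%, which included the other 7 chaperone genes. Near-identical copies of a gene can share probes, so values under this symbol are uncertain.

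The cluster on chromosome 9 that carried Hspa8 also carried Snord14c, Snord14d and Snord14e, small nucleolar RNAs encoded within the Hspa8 gene, so it was left out of the count of 8 and is assigned to no gene here. It read 8.72, 8.91 and 8.94 in DOX_IFNg, 9.03, 9.07 and 8.88 in DOX, and 9.31, 9.37 and 9.31 in Con. Every Con array lay above all 6 arrays of treated cells. The DOX minus Con difference was -0.34 (SE 0.08, limma adjusted p = 0.0409 over all clusters of the table) and the DOX_IFNg minus Con difference was -0.47 (SE 0.08, adjusted p = 0.00707). A further cluster, shared with the predicted gene Gm15459, read 16.25, 16.30 and 16.32 in DOX_IFNg, 16.41, 16.43 and 16.31 in DOX, and 16.72, 16.77 and 16.61 in Con. Its differences were -0.32 for DOX minus Con (adjusted p = 0.0236) and -0.41 for DOX_IFNg minus Con (adjusted p = 0.00604), again with all Con arrays on top.

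Dnajb1 codes for a J protein (Hsp40) that delivers clients to Hsp70 and starts its ATP cycle. Its level was 6.10, 6.49 and 6.53 in DOX_IFNg, 6.48, 6.53 and 6.26 in DOX, and 6.88, 7.11 and 7.19 in Con. All treated arrays lay below all Con arrays, and DOX_IFNg and DOX overlapped. The DOX minus Con difference was -0.64 (SE 0.13, 1.55-fold lower, limma adjusted p = 0.0125) and the DOX_IFNg minus Con difference was -0.69 (SE 0.13, adjusted p = 0.00792). The DOX minus Con call was lost, at -0.47 and an adjusted p = 0.0713, when the arrays were blocked by whether their highest value equals the highest of the table. Con replicate 1 reaches that value and Con replicates 2 and 3 do not, whereas all DOX arrays do.

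Hspa4 and Hsph1 code for Hsp110 family proteins, relatives of Hsp70 that act as its nucleotide exchange factors, and they moved in opposite directions. Hspa4, also called Apg-2, was at 11.46, 11.70 and 11.57 in DOX_IFNg, 11.68, 11.75 and 11.56 in DOX, and 11.00, 11.00 and 10.86 in Con. The treated groups overlapped each other and stood clear of Con. Hspa4 rose by 0.71 in DOX against Con (SE 0.08, 95% interval 0.53 to 0.89, 1.64-fold, limma adjusted p = 0.000496) and by 0.63 in DOX_IFNg against Con (SE 0.08, 1.54-fold, adjusted p = 0.000895). Both calls held under all 19 alternative settings, but the sizes changed. DOX minus Con ran from 0.67 to 0.96 and DOX_IFNg minus Con from 0.57 to 0.95, the last under quantile normalization.

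Hsph1, also called Hsp105, had the largest difference of the 8 genes. It was at 7.25, 7.36 and 7.31 in DOX_IFNg, 7.27, 7.36 and 7.32 in DOX, and 8.54, 8.44 and 8.48 in Con. The spread within each group was a small part of the gap between the treated arrays and Con. Hsph1 fell by 1.17 on the log2 scale in DOX against Con (SE 0.05, 2.24-fold lower, limma adjusted p = 8.12e-06) and by 1.18 in DOX_IFNg against Con (SE 0.05, 2.27-fold lower, adjusted p = 7.57e-06). The difference between DOX_IFNg and DOX was -0.01 with a 95% interval of -0.13 to 0.11. Hsph1 is also the gene whose window holds the row of 3 alternating units printed above. In the longer lists below, Hspd1 and Hspe1 hold it and fell, while Chordc1 and Dnajb6 hold it and were not called. A link between the row and the differences was not tested.

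Bag3 codes for a BAG-domain exchange factor that links Hsp70 to small heat shock proteins and to selective autophagy. Its values were 6.24, 6.50 and 6.63 in DOX_IFNg, 6.72, 6.91 and 6.80 in DOX, and 6.25, 6.35 and 6.39 in Con. DOX lay above every array of the other groups, which overlapped each other. Bag3 rose by 0.48 in DOX against Con (SE 0.10, 1.40-fold, limma adjusted p = 0.0125), a call lost without DOX replicate 2, where the difference was 0.43 and the adjusted p = 0.0510. In DOX_IFNg against Con the difference was 0.13 (95% interval -0.11 to 0.36, adjusted p = 0.485). The direct difference, DOX_IFNg minus DOX, was -0.36 (95% interval -0.59 to -0.12), with an unadjusted p = 0.00737 and an adjusted p = 0.966. An unadjusted p under 0.05 was met by 1 of the 8 genes and by 1503 of 30050 genes (5.00%) in that comparison.

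Hsp90aa1, the inducible cytosolic Hsp90, showed no called difference. It was at 7.56, 7.58 and 7.51 in DOX_IFNg, 7.54, 7.56 and 7.45 in DOX, and 7.58, 7.54 and 7.42 in Con. The 3 groups overlapped. The DOX minus Con interval was -0.13 to 0.14 and the DOX_IFNg minus Con interval -0.10 to 0.17 on the log2 scale (95%, adjusted p = 0.990 and 0.758). A pair of further clusters that Hsp90aa1 shares with the predicted genes Gm12346 and Gm5844 was not called in any comparison.

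Hspb1 codes for the small heat shock protein Hsp25 of mouse, an ATP-independent chaperone that also binds actin. It was at 6.40, 6.58 and 6.92 in DOX_IFNg, 7.0, 7.16 and 6.99 in DOX, and 7.29, 7.68 and 8.06 in Con. The 3 groups did not overlap, with DOX_IFNg lowest and Con highest and most spread. Hspb1 fell by 1.05 on the log2 scale in DOX_IFNg against Con (SE 0.19, 2.07-fold lower, limma adjusted p = 0.00626), a call kept under all 19 alternatives. The DOX minus Con difference of -0.63 (SE 0.19) missed the threshold at an adjusted p = 0.0632. It moved between -0.82 without Con replicate 1 (adjusted p = 0.0173) and -0.30 with arrays blocked by their highest value (adjusted p = 0.246), and was -0.44 without Con replicate 3. DOX_IFNg minus DOX was -0.42 (95% interval -0.86 to 0.02, adjusted p = 0.976).

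Cryab codes for alpha-B crystallin, the small heat shock protein abundant in heart and skeletal muscle. Its values were 7.14, 7.23 and 7.24 in DOX_IFNg, 7.37, 7.61 and 7.21 in DOX, and 6.85, 6.78 and 6.77 in Con. All treated arrays lay above all Con arrays, and DOX_IFNg overlapped DOX. Cryab rose by 0.59 in DOX against Con (SE 0.09, 1.51-fold, limma adjusted p = 0.00303), a call kept under all 19 alternatives. In DOX_IFNg against Con it rose by 0.40 (SE 0.09, 1.32-fold, adjusted p = 0.0192). That call was lost without DOX_IFNg replicate 2 (adjusted p = 0.0657), DOX_IFNg replicate 3 (0.0595), Con replicate 2 (0.0615) or Con replicate 3 (0.0544), at differences of 0.38 to 0.39.

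**Figure D2:**
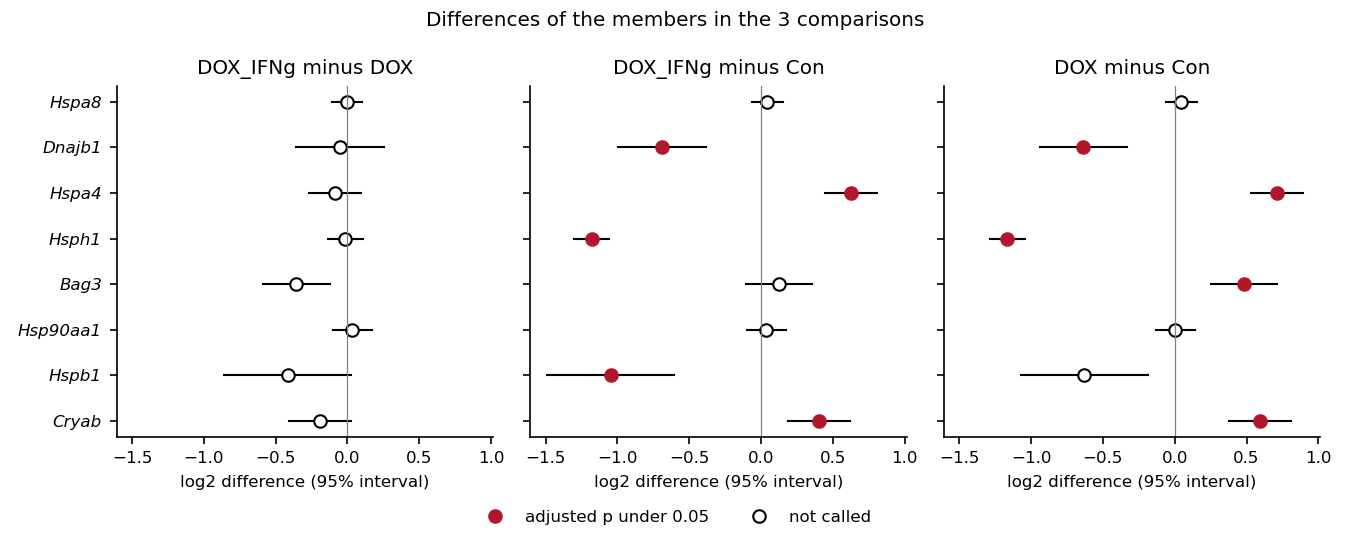
Log2 difference (horizontal axis, with its 95% interval) of the 8 measured chaperone genes in the 3 comparisons, with red points for an adjusted p under 0.05. No gene is red in DOX_IFNg minus DOX, where differences run from -0.42 to 0.03, and Hsph1 lies farthest from 0 in both comparisons with Con.

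Across the comparisons, values of 6 of 8 genes did not overlap between DOX and Con, those of 5 of 8 between DOX_IFNg and Con, and those of 2 of 8 (Bag3 and Hspb1, both lower) between DOX_IFNg and DOX. Over all genes the shares were 32.9%, 33.0% and 11.2%, and over genes above the dim limit 54.9%, 54.4% and 12.4%. In DOX_IFNg minus DOX, the median difference over the 7 genes other than Hspa8 was -0.09, against -0.03 over genes above the dim limit and -0.01 over all genes tested, and Hsp90aa1 alone of the 7 was above 0. The 95% interval of that comparison was -0.27 to 0.10 for Hspa4, -0.36 to 0.25 for Dnajb1 and -0.10 to 0.17 for Hsp90aa1. An unadjusted p under 0.05 was met by 6 of 8 genes in DOX minus Con (27.6% of all genes) and by 5 of 8 in DOX_IFNg minus Con (29.0%).

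The profiles over the 9 arrays most like that of Hsph1, by the root mean square difference after centring, were those of Nono (0.0578), Txndc5 (0.0615) and Prim1 (0.0639). Their DOX minus Con differences were -1.15, -1.13 and -1.15. For Hspa4 the nearest profiles were those of Vps53 (0.0334), Xpnpep3 (0.0397) and Uggt1 (0.0472), with DOX minus Con differences of 0.76, 0.65 and 0.66. This is a description of likeness with no test.

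The wider chaperone system was read from 62 further genes in 9 lists, of which 57 were measured through a cluster of their own. Hspa1b, Dnaja1, Cct6a, Stub1 and Pfdn6 were not analysed here. In DOX against Con, 9 rose, 13 fell and 35 were not called. In DOX_IFNg against Con, 6 rose, 13 fell and 38 were not called, and between DOX_IFNg and DOX limma called none of 57. Of the 57, 43 lay above the dim limit. The shares called over all genes were 15.6% in DOX minus Con and 17.4% in DOX_IFNg minus Con. Among genes above the dim limit they were 33.0% and 36.7%. The 57 hold genes on both sides of that limit, so neither share is for a like set of genes. Between DOX_IFNg and DOX, 5 of the 57 had an unadjusted p under 0.05 (5.00% of all genes did), all lower in DOX_IFNg, namely Bag6 (-0.28), Cdc37 (-0.16), Cct3 (-0.20), Cct7 (-0.34) and Pfdn1 (-0.21), which are named after their values were seen. The median difference over the 57 genes was -0.02 in DOX minus Con and -0.10 in DOX_IFNg minus Con. Of the calls, 14 of 22 in DOX against Con and 14 of 19 in DOX_IFNg against Con were kept under every alternative tried. The size of a kept call could still change. In DOX against Con, Stip1 ran from -0.97 to -0.65 and Cct2 from -0.49 to -0.26.

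Of the other Hsp70 genes, none of 5 measured lay above the dim limit. Hspa1a, the stress-inducible Hsp70, stood at 3.73 ± 0.03 in DOX_IFNg, 3.76 ± 0.03 in DOX and 3.78 ± 0.08 in Con (SD, n = 3) and was not called. Limma called Hspa14 lower in DOX by 0.21 and Hspa4l, a further Hsp110 gene, higher in DOX_IFNg by 0.26, both against Con. Leaving out DOX replicate 3 ended the Hspa14 call (adjusted p = 0.117), and leaving out DOX_IFNg replicate 1 ended that of Hspa4l (0.0691), as did other alternatives.

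Of 9 further cytosolic J protein genes, 8 of them above the dim limit, 3 rose in DOX_IFNg and 4 in DOX against Con, and none was called lower. Among all genes above the dim limit, 17.1% rose in DOX_IFNg and 17.4% in DOX, and 36.7% and 33.0% were called in either direction. The called J protein genes all lay above that limit. Whether the list departs from these shares was not tested. Dnajb5, a relative of Dnajb1, was at 6.20, 6.33 and 6.43 in DOX_IFNg, 6.31, 6.53 and 6.33 in DOX, and 5.79, 5.68 and 5.70 in Con. Both treated groups were clear of Con, with differences of 0.60 (SE 0.08, limma adjusted p = 0.00130) for DOX_IFNg and 0.66 (SE 0.08, adjusted p = 0.000785) for DOX. Dnajb2 rose by 0.41 in DOX_IFNg and by 0.54 in DOX. Dnajc5 rose by 0.18 in DOX_IFNg and by 0.27 in DOX, and Dnaja4 by 0.27 in DOX. The Dnajc5 call in DOX_IFNg was lost without DOX_IFNg replicate 2 (adjusted p = 0.137) and the Dnaja4 call without Con replicate 2 (0.0704), among other arrays. Dnajb1 itself moved the other way, as given above. Of 6 further exchange factor and BAG genes, Bag5 alone was called, at 0.25 in DOX_IFNg and 0.31 in DOX. Its DOX call was lost only without DOX replicate 1 or DOX replicate 2 (limma adjusted p = 0.0634 and 0.0600). Its DOX_IFNg call was lost under 12 of 19 alternatives (limma adjusted p up to 0.114), among them leaving out any Con replicate.

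Of 13 Hsp90 and Hsp70 cochaperone genes, 11 of them above the dim limit, 4 fell in each comparison with Con and none was called higher. Among all genes above the dim limit, 19.6% fell in DOX_IFNg and 15.7% in DOX, and 36.7% and 33.0% were called in either direction. The called cochaperone genes all lay above that limit. Whether the list departs from these shares was not tested. Stip1 codes for Hop, the adaptor that carries clients from Hsp70 to Hsp90. It was at 10.60, 10.83 and 10.80 in DOX_IFNg, 10.77, 10.74 and 10.62 in DOX, and 11.75, 11.61 and 11.54 in Con. The treated arrays overlapped and all lay below Con. Stip1 fell by 0.89 in DOX_IFNg (SE 0.08, limma adjusted p = 0.000193) and by 0.92 in DOX (SE 0.08, adjusted p = 0.000168). Ahsa1, the activator of the Hsp90 ATPase, fell by 0.63 in DOX_IFNg and by 0.50 in DOX. St13, the Hsp70-interacting protein Hip, fell by 0.35 in DOX_IFNg and by 0.37 in DOX. Fkbp4, an Hsp90-binding immunophilin, fell by 0.40 in DOX_IFNg and by 0.30 in DOX, the last a call lost under 12 of 19 alternatives (adjusted p = 0.0996 without DOX replicate 1). Chordc1, an Hsp90-binding protein whose window also holds the row of 3 alternating units, was not called. It was at 8.96, 8.55 and 8.13 in DOX_IFNg, 8.33, 8.57 and 8.12 in DOX, and 8.17, 7.63 and 6.87 in Con.

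Of 5 small heat shock protein genes other than Hspb1 and Cryab, 3 lay above the dim limit. Limma called 2 of the 5 in DOX and 1 in DOX_IFNg, both against Con. Over all genes 15.6% and 17.4% were called, and among genes above the dim limit 33.0% and 36.7%. Hspb8, a partner of Bag3 in selective autophagy, rose by 0.46 in DOX (limma adjusted p = 0.0365), a call lost under 11 of 19 alternatives, and its difference was 0.33 in DOX_IFNg (adjusted p = 0.104). Hspb2, the neighbour gene of Cryab, rose by 0.42 in DOX, lost under 9 of 19. Hspb7, a dim gene, fell by 0.23 in DOX_IFNg, lost under 11 of 18. The differences of Hspb6 were -0.18 in DOX_IFNg and -0.24 in DOX, not called. Of 3 genes in the heat shock factor list, 2 were called in DOX and none in DOX_IFNg. Hsf2 fell by 0.41 in DOX (adjusted p = 0.0326), lost under 7 of 19 alternatives. Hsf4, a dim gene, rose by 0.16 in DOX, lost under 14 of 18. Among single arrays left out, the adjusted p of these calls reached 0.114 for Hspb8 without DOX replicate 1, 0.106 for Hspb2 without DOX replicate 2, 0.0867 for Hspb7 without DOX_IFNg replicate 2, 0.106 for Hsf2 without DOX replicate 3 and 0.150 for Hsf4 without DOX replicate 2.

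The CCT chaperonin folds actin and tubulin in the cytosol, and prefoldin hands it unfolded chains. Of 7 CCT subunit genes measured, all above the dim limit, 5 fell in DOX_IFNg and 4 in DOX, where 19.6% and 15.7% of all genes above that limit fell. Cct3 was at 8.12, 8.36 and 8.36 in DOX_IFNg, 8.42, 8.57 and 8.46 in DOX, and 9.0, 9.0 and 9.19 in Con, and fell by 0.78 (SE 0.09, limma adjusted p = 0.000469) in DOX_IFNg and by 0.58 (SE 0.09, adjusted p = 0.00242) in DOX. Cct5 fell by 0.56 in both, Tcp1 by 0.50 in DOX_IFNg and 0.47 in DOX, and Cct2 by 0.51 in DOX_IFNg and 0.41 in DOX. Cct7 fell by 0.58 in DOX_IFNg, a call lost under quantile normalization at -0.31. Of 5 prefoldin genes, Pfdn5 alone was called and fell by 0.85 in DOX_IFNg and by 0.72 in DOX.

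Of 4 mitochondrial chaperone genes, all above the dim limit, 1 rose and 2 fell in each comparison with Con. Among all genes above that limit, 36.7% were called in DOX_IFNg and 33.0% in DOX. Trap1 was not called, with differences of -0.21 in DOX_IFNg and -0.14 in DOX. Hspa9, the mitochondrial Hsp70 mortalin, was at 11.11, 11.23 and 11.16 in DOX_IFNg, 11.33, 11.43 and 10.99 in DOX, and 9.79, 9.54 and 9.41 in Con. All treated arrays lay above all Con arrays by more than the spread of any group. Hspa9 rose by 1.59 in DOX_IFNg (SE 0.13, 3.01-fold, limma adjusted p = 8.57e-05) and by 1.67 in DOX (SE 0.13, 3.19-fold, adjusted p = 7.09e-05). Hspe1 and Hspd1 code for the partners Hsp10 and Hsp60 of the mitochondrial chaperonin, and both fell.

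Hspe1 was at 7.16, 6.95 and 7.23 in DOX_IFNg, 7.19, 7.34 and 7.32 in DOX, and 8.19, 8.12 and 8.05 in Con. It fell by 1.01 in DOX_IFNg (SE 0.08, limma adjusted p = 8.27e-05) and by 0.84 in DOX (SE 0.08, adjusted p = 0.000230). Hspd1 was at 9.89, 9.82 and 9.66 in DOX_IFNg, 9.88, 9.98 and 9.81 in DOX, and 10.85, 10.81 and 10.48 in Con. It fell by 0.92 in DOX_IFNg and by 0.83 in DOX. The 2 genes lie head to head on chromosome 1, and the row of alternating units printed for Hspe1 falls within the windows of both. In the 57 listed genes, 47 had a window, of which 4 held a row of 3 units (Chordc1, Dnajb6, Hspd1 and Hspe1) and 14 held paired units. Over all 27025 genes with a window the shares were 0.662% and 17.0%.

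**Figure D3:**
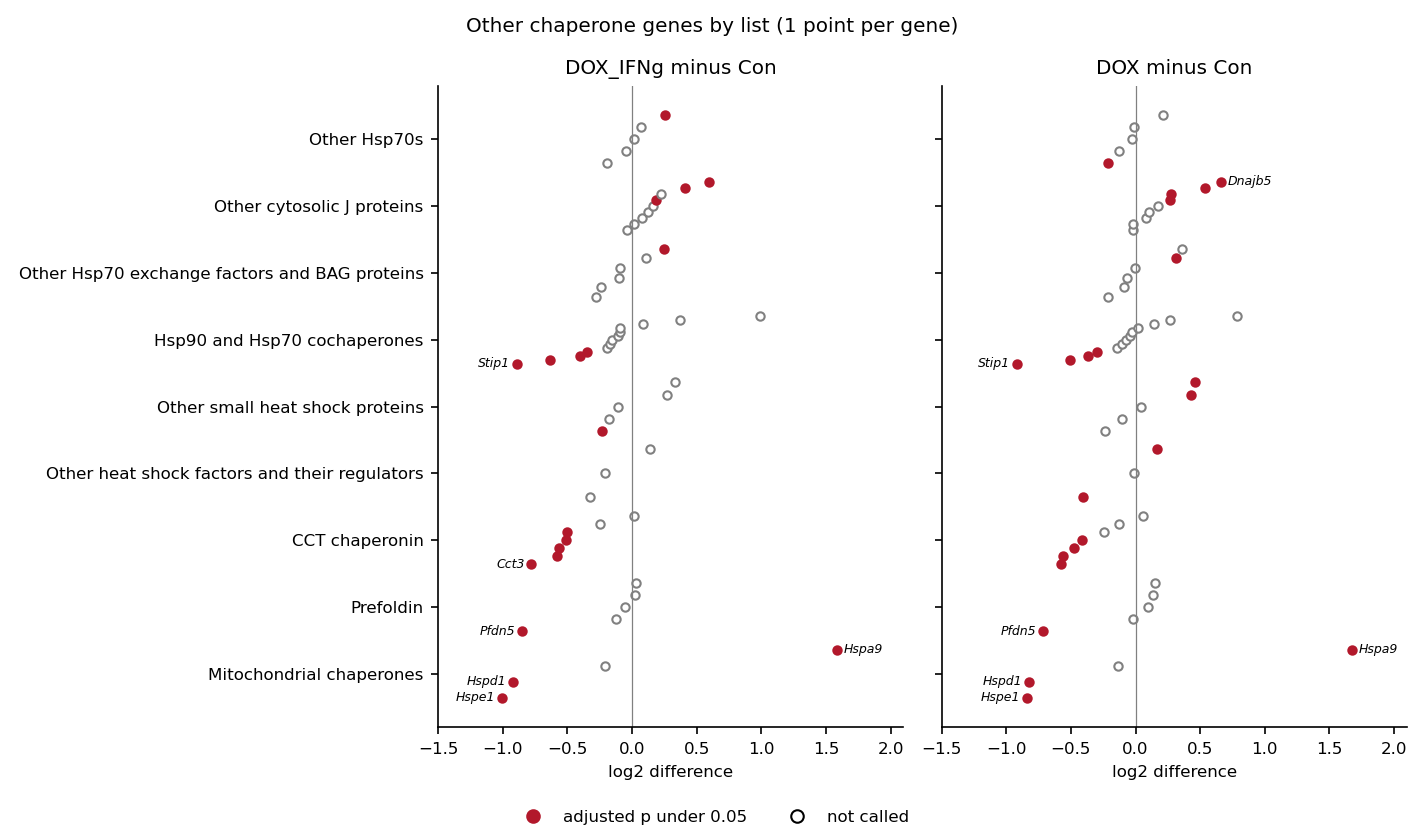
Log2 difference against Con (horizontal axis) of 57 further chaperone genes, 1 point per gene, grouped by list down the page, with red points for an adjusted p under 0.05 and names where the size is largest. Called cochaperone, CCT and prefoldin genes all lie below 0, called J protein genes all lie above it, and Hspa9 lies at 1.59 in DOX_IFNg minus Con and 1.67 in DOX minus Con.

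Other features of the arrays moved with the groups. Component 1 of a principal component analysis (60.1% of the variance) set the 6 treated arrays apart from Con, and on component 2 (14.2%) Con replicate 3 and DOX_IFNg replicate 1 stood away from their groups. Of 9 heart muscle markers measured, 2 (Tnnt2 and Nkx2-5) lay above the dim limit. Myh6, Myl7, Nppa, Tnni3, Gata4, Tbx5 and Ryr2 lay below it, so most of these markers do not bear out the labelled cell type. Of 6 skeletal muscle markers 5, among them Myod1, Myog and Acta1, lay above the dim limit (4 by the DOX_IFNg mean alone). So did 3 of 5 fibroblast markers (Col1a1, Col1a2 and Col3a1), 0 of 5 endothelial and 0 of 4 immune markers. The mean level of the fibroblast list was 9.15 to 9.20 in DOX_IFNg, 9.18 to 9.20 in DOX and 9.99 to 10.14 in Con, and that of the skeletal muscle list was 5.45 to 5.55 in DOX_IFNg, 5.52 to 5.68 in DOX and 6.29 to 6.41 in Con. In that skeletal muscle list Myog averaged 4.61 in DOX_IFNg, 4.76 in DOX and 8.18 in Con. Acta1, Myh3 and Tnnt3 were also lower in both treated groups, whereas Myod1 was higher (6.33, 6.78 and 6.03). The heart muscle list averaged 4.50 to 4.57 in DOX_IFNg, 4.53 to 4.57 in DOX and 4.64 to 4.67 in Con. Tnnt2 averaged 6.52, 6.70 and 7.94, and Nkx2-5, the other heart muscle marker above the dim limit, was also lower in both treated groups than in Con. Myh6, Myl7, Nppa and Gata4 averaged slightly higher in both treated groups than in Con, but all lay below the dim limit. The part of these shifts in the chaperone differences was not tested.

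Arrays also differed in their highest value, which was 19.93152 on 6 arrays (DOX_IFNg replicates 1 and 2, all DOX arrays and Con replicate 1) and lower on the other 3. Among the 6 arrays alone, DOX minus Con rests on 1 Con array and has no test. There the differences were 0.66 for Hspa4, -1.22 for Hsph1, 0.54 for Cryab, 0.56 for Bag3, -0.46 for Dnajb1 and -0.25 for Hspb1. The first 4 were near the values over all arrays and the last 2 were smaller. For DOX_IFNg minus Con the differences among the 6 arrays and among the other 3 were 0.58 and 0.65 for Hspa4, -1.24 and -1.15 for Hsph1, -0.59 and -0.62 for Dnajb1, -0.81 and -0.95 for Hspb1, and 0.33 and 0.47 for Cryab. These directions were those over all arrays.

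**Figure D4:**
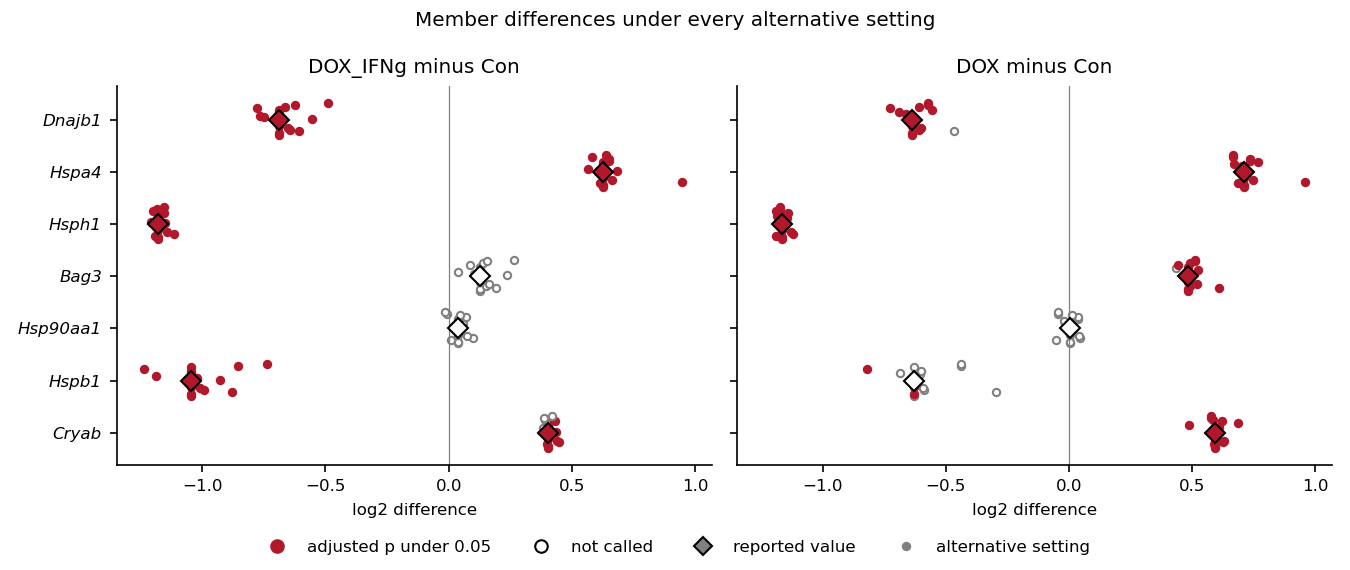
Log2 difference against Con (horizontal axis) of 7 chaperone genes as reported (diamonds) and under 19 alternative settings each (dots), red where the adjusted p was under 0.05. Hsph1, Hspa4, Dnajb1 and Hspb1 stay red in DOX_IFNg minus Con, and Bag3 and Hsp90aa1 are never red there. In DOX minus Con the dots of Hspb1 run from -0.82 to -0.30.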

How the data were processed

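The deposited table held log2 values for 65527 transcript clusters on 9 arrays, made with RMA (background correction, normalization and probe summary) per the submitters' processing notes. Its version is not given in the sources used here. Values ran from 2.29 to 19.93, with array medians of 4.08 to 4.17, and their log2 scale is an inference from that range. RMA can understate differences of dim probes and those near the upper end, where 139 clusters lay within 1 of the top on all arrays.

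The platform annotation gave a single symbol for 30376 clusters and several for 2117, while 33034 were not listed. The single-symbol clusters gave 30050 genes, and the cluster with the highest mean stood for each of 245 genes with several. Group means were fitted to all 9 arrays with limma 3.58.1 in R 4.3.3 (lmFit and eBayes, 6 residual and 2.41 prior degrees of freedom). Tests were two-sided with Benjamini-Hochberg adjustment over all 30050 genes, and calls were made below 0.05 without any filter or minimum fold. With so few arrays, the 95% interval of a typical gene (median) was ±0.19 log2 units. The procedure was also run on simulated data of independent normal values. These lacked the array differences and the ceiling of the real data, so the run gives no error rate for them.

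The chaperone genes and lists were chosen with earlier results of these data known. All chaperone genes of the first list are named, together with up to 4 called genes per further list, a few reported called or not, and the 3 nearest profiles of the 2 genes with the largest DOX minus Con differences. Alternatives were the 2 groups alone, replicate or array class as a block, quantile normalization, median centring, a dim filter, all clusters, the mean of a gene's clusters, a variance trend, and each array left out. Leaving out both arrays that stood apart was added after seeing the data. Promoter windows are 300 bases from RefSeq GRCm38.p6, and Hspa8, Hsp90aa1 and Cryab had no entry.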

Additional observations from a re-analysis of the deposited data

How the results depend on the processing

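For the 8 chaperone genes in 3 comparisons, 456 values under alternatives were set against those reported. Of these, 430 kept their direction and side of the threshold, 7 lost a call, 3 gained one and 16 changed sign, all 16 in differences that were not called. The 7 losses were 5 for Cryab in DOX_IFNg minus Con, which include leaving out both arrays that stood apart (adjusted p = 0.0774), 1 for Bag3 and 1 for Dnajb1 in DOX minus Con. The 3 gains were for Hspb1 in DOX minus Con, without Con replicate 1, with the dim filter (adjusted p = 0.0333) and with the replicate block. Calls of Hspa4 and Hsph1 held throughout, although the size of the Hspa4 differences depended on the setting, as given above.

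Sign changes in DOX_IFNg minus DOX were those of Hspa8 with the array class as a block (0.011), Hsph1 under quantile normalization (0.0053), without DOX replicate 2 (0.0070), without DOX_IFNg replicate 1 and without both arrays that stood apart (0.016 each), Dnajb1 without DOX replicate 2 (0.0014), without DOX_IFNg replicate 1 and without both arrays (0.083 each), and Hsp90aa1 without DOX replicate 3 (-0.00066). When each array was left out in turn, that comparison ran from -0.040 to 0.016 for Hsph1, from -0.00066 to 0.057 for Hsp90aa1 and from -0.13 to 0.083 for Dnajb1. Hsp90aa1 also ran from -0.0080 to 0.071 in DOX_IFNg minus Con, with -0.013 without both arrays. In DOX minus Con it ran from -0.043 to 0.038, with -0.054 with the array class block and -0.043 without both arrays. The cause was not tested.

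Over all genes, calls between DOX_IFNg and DOX numbered 0 to 1 when each array was left out. The 1 was Olfr1208 without Con replicate 3 (-0.72, adjusted p = 0.0156), named after its value was seen. Replicate numbers did not pair the arrays alike in all groups. Correlations of deviations of same-numbered arrays ran from -0.311 to 0.545. For DOX_IFNg with Con, replicates 1 (0.545) and 3 (0.481) exceeded their highest other-numbered values (0.332 and -0.255), and replicate 2 (-0.158) did not. For DOX_IFNg with DOX, replicate 2 alone did (0.164 against 0.106). For DOX with Con, no replicate did. With the replicate block, Hspb1 in DOX minus Con reached an adjusted p = 0.0319, and the counts called among the 8 genes were 0, 5 and 6 in DOX_IFNg minus DOX, DOX_IFNg minus Con and DOX minus Con. Precision is limited by 3 arrays a group, and by the ceiling for Hspa8.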
